A study of Mus musculus with 4 samples.

Results

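A set of 10 genes of glycolysis and of the hypoxia response was followed in cells sorted from chimeric mouse kidneys: Slc2a1, Hk1, Hk2, Pfkl, Aldoa, Pgk1, Ldha, Pdk1, Bnip3 and Car9. They were taken by symbol from the platform annotation, which gave 24 probe sets for these 10 genes among the 45101 probe sets of the array. For a test across genes each gene was represented by its brightest probe set, which left 18194 genes. The tested cells carried green fluorescent protein (GFP) and came from embryonic stem cells whose transferrin receptor gene, Tfrc, had been deleted. From 3 to 5 such cells were injected into wildtype blastocysts, and the kidneys were taken on embryonic day 15.5. The cells they were set against were the GFP-negative wildtype cells of chimeric kidneys, parted from them by fluorescence-activated sorting after digestion with collagenase and trypsin. Each group had 2 arrays, numbered replicate 1 and replicate 2, which the labels call biological replicates. No array holds GFP-positive cells with Tfrc intact, so the deletion cannot be told apart from whatever else sets the injected line off from its host. The labels do not say which or how many animals gave the cells of each array, so p-values measure only the spread between these samples.

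Glycolysis splits glucose into pyruvate in the cytosol and yields ATP without oxygen. Several of its enzymes are made in larger amounts when the transcription factor HIF is stable. HIF is marked for destruction by prolyl hydroxylases, enzymes that need oxygen and iron, and in low oxygen it escapes and binds DNA at sites with the core ACGTG. Its known targets include the glucose transporter Slc2a1, most of the enzymes followed here, the mitophagy receptor Bnip3 and the carbonic anhydrase Car9. The developing kidney is a tissue of low oxygen in which HIF is active. This is general background and not a result of these arrays.

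Because several of these genes are known to be HIF targets, the 250 bases before the transcription start are shown for the 5 genes whose values the account below leans on most and whose window holds it. The sequences are those of RefSeq on build GRCm38.p6, read 5′ to 3′ on the strand of the gene, and capitals mark each ACGTG on either strand, so that a CACGTG stretch holds 2 overlapping matches. Slc2a1 is at chr4:119108495-119108744 on the plus strand, Hk2 at chr6:82774455-82774704 on the minus strand, Ldha at chr7:46845554-46845803 on the plus strand, Bnip3 at chr7:138909507-138909756 on the minus strand and Car9 at chr4:43506776-43507025 on the plus strand.
Slc2a1: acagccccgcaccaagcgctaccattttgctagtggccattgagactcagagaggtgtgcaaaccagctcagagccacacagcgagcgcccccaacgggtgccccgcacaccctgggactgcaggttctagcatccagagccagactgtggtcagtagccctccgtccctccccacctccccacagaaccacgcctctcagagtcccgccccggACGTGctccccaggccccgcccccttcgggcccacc
Hk2: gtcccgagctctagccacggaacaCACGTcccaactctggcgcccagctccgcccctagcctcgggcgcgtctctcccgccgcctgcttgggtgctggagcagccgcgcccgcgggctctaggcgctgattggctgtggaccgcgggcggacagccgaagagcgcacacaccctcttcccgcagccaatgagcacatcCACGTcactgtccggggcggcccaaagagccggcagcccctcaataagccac
Ldha: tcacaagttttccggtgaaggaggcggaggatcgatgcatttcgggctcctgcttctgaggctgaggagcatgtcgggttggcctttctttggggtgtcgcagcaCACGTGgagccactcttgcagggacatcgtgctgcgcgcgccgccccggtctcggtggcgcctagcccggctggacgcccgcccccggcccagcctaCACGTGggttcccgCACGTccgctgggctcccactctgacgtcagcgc
Bnip3: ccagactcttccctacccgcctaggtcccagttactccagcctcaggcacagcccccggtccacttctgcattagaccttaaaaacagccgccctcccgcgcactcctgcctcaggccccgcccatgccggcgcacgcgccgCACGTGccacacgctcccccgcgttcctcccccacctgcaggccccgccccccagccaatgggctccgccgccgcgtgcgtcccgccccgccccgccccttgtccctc
Car9: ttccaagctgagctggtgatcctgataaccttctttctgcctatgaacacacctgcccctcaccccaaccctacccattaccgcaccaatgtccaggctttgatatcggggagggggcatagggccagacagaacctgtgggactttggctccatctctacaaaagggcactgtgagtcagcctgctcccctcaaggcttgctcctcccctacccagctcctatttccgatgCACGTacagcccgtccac
Ldha held 5 matches in 3 stretches, Hk2 and Bnip3 2 matches each, and Slc2a1 and Car9 1 each. A further Ldha window, not shown, held 0. The core was found in a window of 7 of the 10 genes, Aldoa and Pgk1 included, and in 8 of their 15 windows. Over all 27025 genes with a window it was found in 18.5%, and over all 32851 windows in 16.6%. These letters were not in the windows of Hk1, Pfkl and Pdk1. A match is a description of the sequence and was not tested as a binding site.

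The signal of the Tfrc probe sets did not show the deletion and could not check the label. The brightest Tfrc probe set read 2509 and 3175 on the arrays labelled Tfrc-/-, against 1759 and 2348 on the wildtype arrays. Of the other 5 probe sets of the gene, 4 also had the higher mean there, and the one at its 5′ end read below the brightest Bacillus control probe set on every array. The sources used here do not name the deleted exons, and signal from outside them checks nothing. The group is therefore called labelled Tfrc-/- below, and every direction rests on that label. Markers of cap mesenchyme and of proximal tubule, 10 genes each, all read above the control level on at least 1 array. The control level was that of the brightest Bacillus control probe set of an array, between 7.18 and 9.08. Beta-actin signal at the 3′ end over that at the 5′ end, a measure of RNA length after amplification, was 5.89 and 7.21 on the labelled Tfrc-/- arrays and 5.51 and 6.49 on the wildtype arrays, the second value being that of replicate 2 in each case. The 10 genes' 24 probe sets all read above the control level on all 4 arrays.

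None of the 10 genes passed the test between the groups. With limma, 0 of 10 had an adjusted p under 0.05, and 0 of all 18194 genes did (0% called). At an unadjusted p under 0.05 the numbers were 0 of 10 and 1459 of 18194 (8.02%, with 4.03% higher and 3.98% lower). The mean was higher on the labelled Tfrc-/- arrays for 7 of the 10 genes, against 57.5% of all genes, and the median log2 difference of the 10 was 0.09, against 0.04 over all genes. The median was 0.29 without labelled Tfrc-/- replicate 1, 0.28 without wildtype replicate 2 and 0.03 without labelled Tfrc-/- replicate 2. In sorted bulk cells, more RNA per cell and more cells of a type that holds the RNA cannot be told apart.

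The genes of glucose entry and of its first step did not pass the test, and the brightest probe set of each read highest on the arrays numbered 2. Slc2a1 encodes the glucose transporter GLUT1. Its intensity was 3655 and 5955 on the labelled Tfrc-/- arrays (replicates 1 and 2), against 3742 and 5994 on the wildtype arrays. The groups covered almost the same range, and the arrays numbered 2 were the high ones in both. The log2 difference was -0.02 (SE 0.35, 95% interval -0.91 to 0.86, limma adjusted p = 1). The interval reaches differences of nearly 1 in either direction, so the arrays do not show that the groups are equal. The other 2 probe sets of Slc2a1 differed by 0.01 and 0.07. Hk1 encodes the widespread hexokinase, which phosphorylates glucose. It read 119.2 and 202.9 on the labelled Tfrc-/- arrays, against 131.7 and 219.0 on the wildtype arrays, again with overlap and with replicate 2 high in both groups (log2 difference -0.13, 95% interval -1.07 to 0.82). A second, dim Hk1 probe set lay lower without overlap, at 12.1 and 10.9 against 15.2 and 14.6 (log2 difference -0.38, adjusted p over all probe sets = 0.789). Hk2 encodes the inducible hexokinase of muscle and of many growing cells. It read 743.0 and 991.8 on the labelled Tfrc-/- arrays, against 605.3 and 802.5 on the wildtype arrays. The groups overlapped, though the labelled Tfrc-/- array was the higher one within each replicate number, by 0.30 and 0.31 on the log2 scale. The limma difference was 0.30 (SE 0.25, 95% interval -0.34 to 0.94, adjusted p = 0.901), and it ran from 0.092 to 0.51 with 1 array left out.

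**Figure D1:**
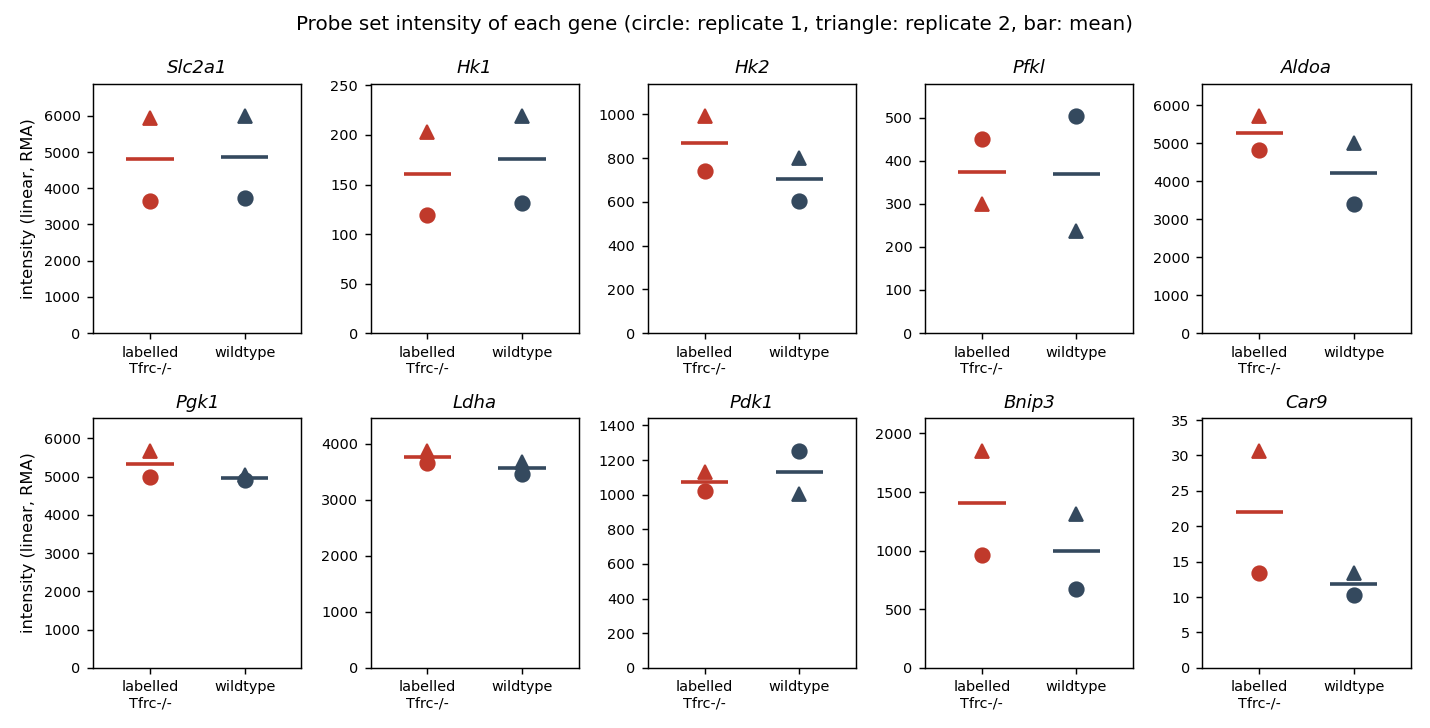
Intensity of the brightest probe set of each gene on the 4 arrays, on linear axes that start at 0 and differ between panels; red marks the arrays labelled Tfrc-/- and dark blue the wildtype arrays, circles are replicate 1, triangles replicate 2 and bars group means. Slc2a1, Hk1, Hk2, Aldoa, Pgk1, Ldha and Bnip3 have both triangles above both circles, and Car9 alone has both red points above both blue points, with 13.34 against 13.33 at the nearest pair.

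The middle steps of glycolysis gave no difference past the test. Pfkl encodes the liver-type subunit of phosphofructokinase, which commits sugar to glycolysis. Its brightest probe set read 450.1 and 299.3 on the labelled Tfrc-/- arrays, against 503.8 and 236.5 on the wildtype arrays. Here the arrays numbered 1 were the high ones, and the wildtype arrays enclosed the others (log2 difference 0.09, 95% interval -0.98 to 1.16). The 3 Pfkl probe sets did not go one way, with a highest difference of 0.24 and a lowest of -0.60. Aldoa encodes the main aldolase, which splits the 6-carbon sugar. It read 4826 and 5715 on the labelled Tfrc-/- arrays, against 3400 and 5009 on the wildtype arrays, with overlap (log2 difference 0.35, SE 0.26, 95% interval -0.31 to 1.002, limma adjusted p = 0.872). It ran from 0.068 without wildtype replicate 1 to 0.63 without wildtype replicate 2. The means of all 5 Aldoa probe sets were higher on the labelled Tfrc-/- arrays, by 0.16 to 0.41. They share a transcript and, as sets whose probes can match other sequences, are not independent. Pgk1 encodes phosphoglycerate kinase, the first enzyme of the pathway to make ATP. It read 4984 and 5673 on the labelled Tfrc-/- arrays, against 4910 and 5036 on the wildtype arrays, so that the second labelled Tfrc-/- array stood above the rest. Its difference was 0.10 (95% interval -0.38 to 0.57), and its other 2 probe sets differed by -0.04 and -0.06. Aldoa, Pgk1 and Ldha have near-identical copies in the mouse genome that their probes may also bind, which leaves their values uncertain.

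The fate of pyruvate is set by lactate dehydrogenase and by the kinases that switch off pyruvate dehydrogenase. Ldha, the subunit that favours lactate, read 3652 and 3871 on the labelled Tfrc-/- arrays, against 3461 and 3669 on the wildtype arrays. These 4 values lay closer together than those of the other genes here, and the groups overlapped narrowly (log2 difference 0.08, SE 0.18, 95% interval -0.38 to 0.54, limma adjusted p = 0.993). Its difference was the same within both replicate numbers to a tolerance of 1e-06, a coincidence that 185 of the 45101 deposited probe sets share. Pdk1 encodes a pyruvate dehydrogenase kinase. Its brightest probe set read 1021 and 1129 on the labelled Tfrc-/- arrays, against 1253 and 1003 on the wildtype arrays (log2 difference -0.06, 95% interval -0.59 to 0.46). The labelled Tfrc-/- arrays lay between the wildtype ones.

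One Pdk1 probe set stood apart from the other 3 of the gene. The dimmest of the 4 read 29.6 and 19.7 on the labelled Tfrc-/- arrays, against 92.8 and 114.3 on the wildtype arrays. The groups lay far from overlap, with means of 24.6 ± 6.99 and 103.5 ± 15.2 (SD, n = 2 each), 4.27-fold lower on the labelled Tfrc-/- arrays. The log2 difference was -2.09, and it was -1.65 within replicate 1 and -2.54 within replicate 2. It missed the threshold over all probe sets (limma adjusted p = 0.171) and was the one of the 24 with an unadjusted p under 0.05, against 7.23% of all probe sets. The other Pdk1 probe sets differed by -0.06, -0.03 and 0.21, so the gene as a whole is not described by this one. Which part of the Pdk1 transcript each probe set reads was not analysed here. Of the 24 probe sets, 15 had the higher mean on the labelled Tfrc-/- arrays, against 54% of all probe sets. Among the 24, 3 lay higher and 3 lower on the labelled Tfrc-/- arrays without overlap, against 18.3% and 15.2% of all probe sets. The 3 higher were 1 each of Aldoa, Pfkl and Car9, and the 3 lower 1 each of Hk1, Pdk1 and Pfkl.

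**Figure D2:**
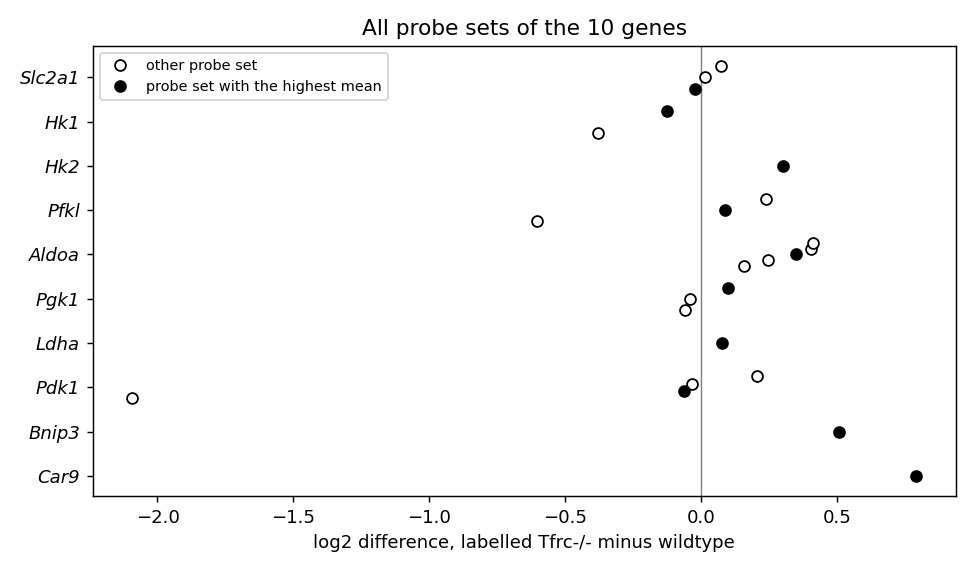
Log2 difference (labelled Tfrc-/- minus wildtype, horizontal axis) of all 24 probe sets, 1 row per gene; filled points are the brightest probe set of a gene, open points its others, and the vertical spread within a row has no meaning. All other points lie between -0.60 and 0.79, and the single Pdk1 probe set at -2.09 stands apart from the other 3 of its gene.

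Bnip3 and Car9 had the largest differences among the 10 over all 4 arrays. Without labelled Tfrc-/- replicate 2 or without wildtype replicate 1, the difference of Pfkl, at 0.38 and 0.63, exceeded both. With 1 array left out the replicate numbers are unequal between the groups, so such values also hold the difference between the numbers. Within the numbers the difference of Pfkl was -0.16 and 0.34. Bnip3 encodes a protein of the outer mitochondrial membrane that marks mitochondria for removal. It read 960.6 and 1851 on the labelled Tfrc-/- arrays, against 670.5 and 1317 on the wildtype arrays. The groups overlapped, because each array numbered 2 exceeded both arrays numbered 1. Within the numbers the labelled Tfrc-/- array was the higher by 0.52 and 0.49 on the log2 scale. The difference of means was 0.51 (SE 0.45, 95% interval -0.65 to 1.66, limma adjusted p = 0.908). It was 0.032 without labelled Tfrc-/- replicate 2 and 0.018 without wildtype replicate 1, and 0.98 and 0.99 without the other array of each group. Car9 encodes a carbonic anhydrase of the cell surface that handles acid in hypoxic cells. It was dim, at 13.3 and 30.6 on the labelled Tfrc-/- arrays, against 10.2 and 13.3 on the wildtype arrays. The second labelled Tfrc-/- array alone stood clear of the others (log2 difference 0.79, SE 0.43, 95% interval -0.29 to 1.87, adjusted p = 0.762). Within the replicate numbers the Car9 difference was 0.38 and 1.20. It was 0.19 without that second labelled Tfrc-/- array and 1.39 without the first.

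Without any size required, Car9 was the 1 gene of the 10 whose groups did not overlap, lying higher, against 20.6% of all genes that lay higher and 14.3% that lay lower. Counted in either direction, this number moved with every array left out. It was 6 without labelled Tfrc-/- replicate 1 and 3 without labelled Tfrc-/- replicate 2. It was 5 without wildtype replicate 1 and 8 without wildtype replicate 2. The remaining single array is easier to separate, and the share of all genes was not counted with an array left out. Within the replicate numbers, 8 of the 10 genes differed the same way in both, against 61.2% of all genes. Of these, 6 of the 10 genes had the labelled Tfrc-/- array higher in both, against 36.8% of all genes, and 2, Slc2a1 and Hk1, had it lower in both, against 24.4%. Pfkl and Pdk1 differed in sign between the numbers. These counts take the brightest probe set of each gene and require no size. Slc2a1 lay lower by only -0.03 and -0.009, and its other 2 probe sets lay higher within both numbers, by 0.05 and 0.10 and by 0.01 and 0.02. The other 2 probe sets of Pgk1 differed in sign between the numbers. All 5 probe sets of Aldoa lay higher within both numbers, and both of Hk1 lower.

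**Figure D3:**
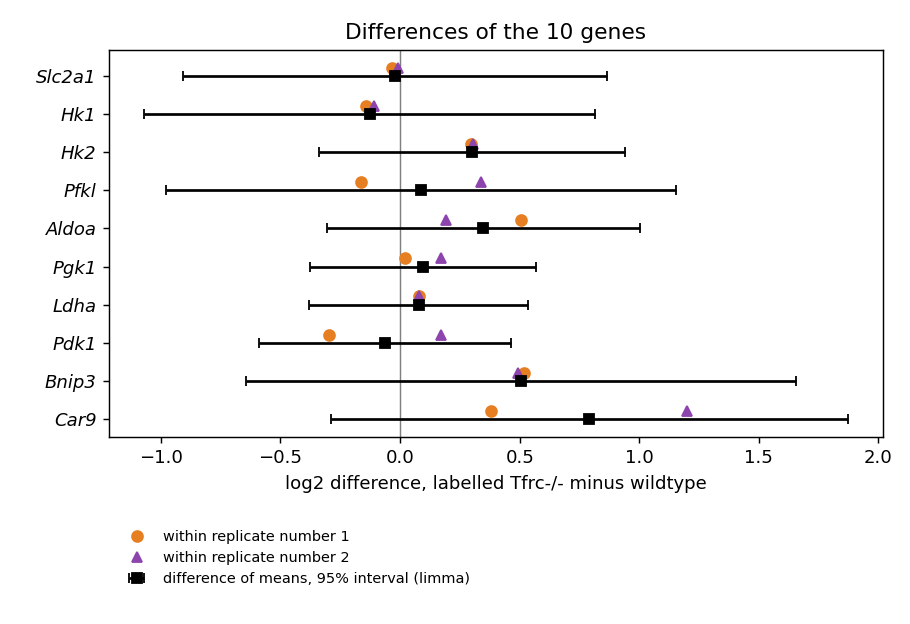
Log2 difference (labelled Tfrc-/- minus wildtype) of each gene; squares with bars are the difference of group means with its 95% interval from limma, circles the difference within replicate number 1 and triangles that within number 2. All 10 intervals span 0, and the values within the numbers of Slc2a1, Hk1, Hk2, Ldha and Bnip3 nearly coincide.

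Several of the genes differed more between the replicate numbers than between the groups. Slc2a1 was 1.63-fold higher on replicate 2 than on replicate 1 of the labelled Tfrc-/- arrays and 1.602-fold higher on replicate 2 of the wildtype arrays. For Hk1 the folds were 1.70 and 1.66, for Hk2 1.33 and 1.33, and for Bnip3 1.93 and 1.96. The dim Hk1 probe set did not share the rise, with log2 values of -0.15 and -0.05. The brightest Pfkl probe set stood the other way, with replicate 2 below replicate 1 by a log2 value of -0.59 on the labelled Tfrc-/- arrays and -1.09 on the wildtype arrays. Its other probe sets gave 0.23 and -0.10, and -0.29 and -0.61, both with overlap of the replicate numbers. In all, 7 of the 10 genes (Slc2a1, Hk1, Hk2, Aldoa, Pgk1, Ldha and Bnip3) had both arrays numbered 2 above both arrays numbered 1, against 22.8% of all genes, and 1 had the reverse, against 23.8%. No size was required for this count. Ldha rose by a log2 value of only 0.08 in each group, and Pgk1 by 0.19 on the labelled Tfrc-/- arrays and 0.04 on the wildtype arrays. The counts by replicate number were not repeated under other normalizations. Car9 was also higher on replicate 2 in both groups, by log2 values of 1.20 on the labelled Tfrc-/- arrays and 0.38 on the wildtype arrays. It fell outside the count because labelled Tfrc-/- replicate 1 read 13.34 and wildtype replicate 2 read 13.33. Of the 24 probe sets, 16 had both arrays numbered 2 on top, against 23.1% of all probe sets. The median log2 difference of replicate 2 minus replicate 1 over the 10 genes was 0.33 on the labelled Tfrc-/- arrays and 0.39 on the wildtype arrays, where the median of all genes was -0.003 and 0. What arrays of one number share is not given in the labels. The 3′ to 5′ ratio of beta-actin was also the higher on replicate 2 in both groups, and its part in these values was not tested.

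Genes known from elsewhere to be induced by hypoxia were counted in the same manner. Of 24 others measured, 12 had both arrays numbered 2 above both numbered 1 and 1 the reverse, against 22.8% and 23.8% of all genes. Their median differences of replicate 2 minus replicate 1 were 0.38 on the labelled Tfrc-/- arrays and 0.20 on the wildtype arrays. Of the 16 paralogues of the 10 genes, 8 had both arrays numbered 2 on top and 2 the reverse. Among those 8, Pgk2 and Ldhc did not exceed the control level in wildtype cells. Slc2a3, the second high-affinity glucose transporter, read 533.2 and 1265 on the labelled Tfrc-/- arrays, against 524.8 and 1121 on the wildtype arrays. Aldoc, a further aldolase, read 21.3 and 54.7 against 13.2 and 43.9, and Pdk4, a pyruvate dehydrogenase kinase of fasting and fat use, 690.7 and 1947 against 855.7 and 1758. These 3 genes differed most between the numbers among the paralogues. In them each array stood closer to the array of equal number than to the other array of its group. Among the other glycolytic genes 3 of 17 had both arrays numbered 2 on top and 2 the reverse. Among the HIF subunits and their regulators these numbers were 5 and 2 of 15.

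**Figure D4:**
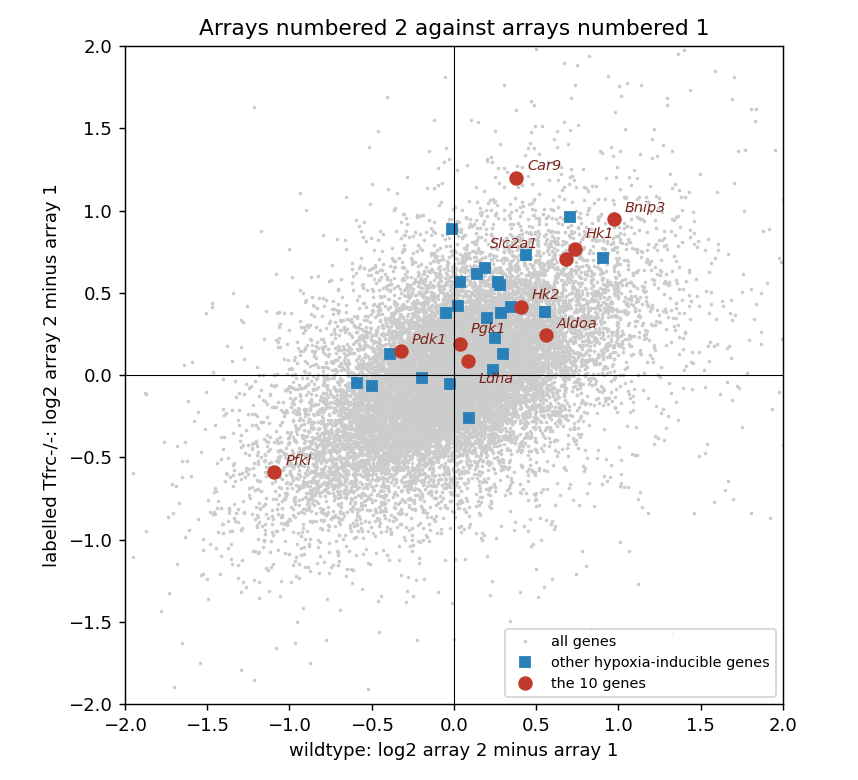
Log2 of array 2 minus array 1 within the wildtype group (horizontal) and within the labelled Tfrc-/- group (vertical) for all genes (grey), the 24 other hypoxia-inducible genes (blue squares) and the 10 genes (red, named); 47 genes beyond 2 log2 units are not drawn. Slc2a1, Hk1, Hk2, Aldoa, Bnip3 and Car9 lie in the upper right, as do Pgk1 and Ldha nearer the centre, and Pfkl lies in the lower left.

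Between the groups, the remaining genes of the pathway gave no call either. Of the 16 paralogues measured, 0 passed and the median difference was 0.09. Slc2a4, the insulin-regulated glucose transporter of muscle and fat, read 118.6 and 90.9 on the labelled Tfrc-/- arrays, against 66.1 and 59.8 on the wildtype arrays (log2 difference 0.72, adjusted p = 0.472). Slc2a2, the transporter of liver and proximal tubule, read 198.5 and 145.0 against 217.1 and 245.7. Both lay apart without overlap, as did Pdk3 and Car14, with log2 differences of 0.34 and 0.35. Hkdc1 also lay apart, with a difference of -0.36, but was above the control level on 3 of the 4 arrays. That made 3 of the 16 paralogues higher without overlap and 2 lower, against 20.6% and 14.3% of all genes. The differences of Hk3, Pfkm, Pfkp, Aldoc, Ldhb, Pdk2, Pdk4, Slc2a3 and Car12 ran from -0.23 for Car12 to 0.50 for Aldoc, with overlap of the groups in each. Pgk2 and Ldhc, isoforms of the testis, had both wildtype arrays at or below the control level, and no difference is given for them.

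Of the other 17 glycolytic genes measured from 21 listed, 0 passed, and their median difference was 0.09, equal to that of the 10 genes to 2 decimals. Slc16a3, which encodes the lactate exporter MCT4, read 398.5 and 365.2 on the labelled Tfrc-/- arrays, against 227.3 and 192.3 on the wildtype arrays. The groups lay apart, 1.82-fold higher on the labelled Tfrc-/- arrays, with 0.81 and 0.93 within the replicate numbers, and the test gave an adjusted p of 0.312 (log2 difference 0.87, SE 0.20). Slc16a1, which encodes the transporter MCT1, lay lower, at 1690 and 1312 against 1787 and 2264 (adjusted p = 0.762). Bpgm makes the bisphosphoglycerate that tunes haemoglobin in red cells. It read 373.8 and 204.6 on the labelled Tfrc-/- arrays, against 656.8 and 942.2 on the wildtype arrays, 2.84-fold lower (log2 difference -1.51, SE 0.36, adjusted p = 0.340). The muscle mutase Pgam2 and the pyruvate carrier subunit Mpc1 differed by -0.55 and 0.37.

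The HIF pathway itself showed differences of under 0.5 on the log2 scale. Of its 15 genes 0 passed, 12 had a higher mean on the labelled Tfrc-/- arrays, against 57.5% of all genes, and the median difference was 0.16. Epas1, the HIF-2α subunit, lay lower without overlap, at 627.5 and 614.0 on the labelled Tfrc-/- arrays, against 800.3 and 897.0 on the wildtype arrays (log2 difference -0.45, adjusted p = 0.638). The hydroxylase genes Egln1 and Egln2, which mark HIF for destruction, and Hif1an, which blocks its activity, lay higher without overlap, by 0.26, 0.32 and 0.32. Siah2, a ubiquitin ligase of the hydroxylases, differed by 0.36 with overlap. In all, 5 of the 15 lay higher without overlap and 1 lower, against 20.6% and 14.3% of all genes. Of the 24 other hypoxia-inducible genes, 0 passed, 19 had a higher mean, against the same 57.5%, and the median difference was 0.11. The 3 with an unadjusted p under 0.05 all lay higher, where 4.03% of all genes did so. P4ha2, a collagen prolyl hydroxylase, read 107.1 and 143.1 on the labelled Tfrc-/- arrays, against 76.5 and 77.7 on the wildtype arrays (log2 difference 0.68, adjusted p = 0.505). Angptl4, a secreted lipase inhibitor, and Gys1, the glycogen synthase of muscle, differed by 0.73 and 0.55, with adjusted p of 0.591 and 0.546. P4ha1, a further collagen prolyl hydroxylase, and the HIF target Ankrd37 differed by 0.49 and 0.54.

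**Figure D5:**
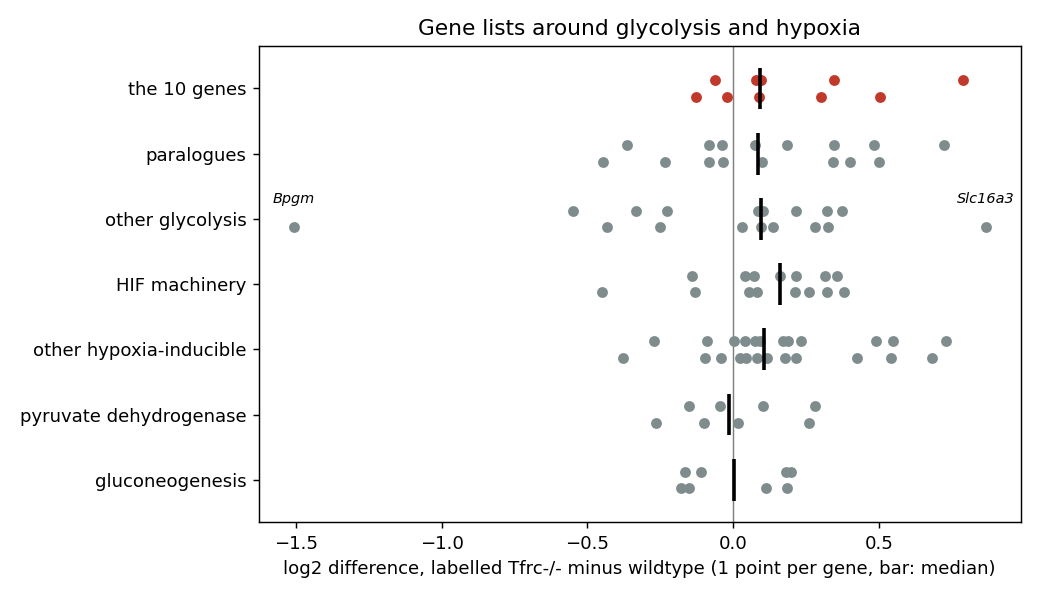
Log2 difference (labelled Tfrc-/- minus wildtype) of each measured gene in 7 lists, 1 point per gene, with a bar at the median of the list; the vertical spread within a row has no meaning. List medians lie between -0.01 and 0.16, and Bpgm and Slc16a3 are the outermost points of the other glycolytic genes.

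Of the 7 lists of markers of cell types in the kidney, 0 genes passed the test. Each list is given by its count of higher or lower means, where 57.5% of all genes had the higher mean on the labelled Tfrc-/- arrays, and by its summed intensity. Red cell markers had a lower mean in 17 of 18 genes, with sums of 335.8 and 374.5 on the labelled Tfrc-/- arrays, against 1732 and 4584 on the wildtype arrays; Hba-a1, Epb42 and Rhag did not exceed the control level on any array. Alas2, the haem enzyme of red cells, read 22.9 and 12.8 against 386.1 and 1349. Bpgm, given above, also read lower on the labelled Tfrc-/- arrays, and a link between it and the red cell markers was not tested. Ureteric bud markers were lower in 18 of 19 genes, with sums of 3971 and 4660 against 8608 and 9583, and endothelial markers lower in 16 of 16, with sums of 3723 and 3019 against 5386 and 4462. Stromal markers were higher in 16 of 17 genes, with sums of 28642 and 25142 against 22525 and 17611. Leukocyte markers were higher in 10 of 12, with sums of 6859 and 7162 against 5824 and 7305, so that the sum was not the higher one on replicate 2. The other 2, Ptprc and Lyz2, lay lower without overlap, by log2 differences of -0.73 and -0.72, and were the 2 leukocyte genes with an unadjusted p under 0.05. Cap mesenchyme markers were lower in 8 of 10, with sums of 4513 and 4492 against 4692 and 5761. Proximal tubule markers were lower in 6 of 10, with sums of 2854 and 2479 against 2408 and 3293, so that their direction turned with the replicate number. In the other lists, an unadjusted limma p under 0.05 was reached by 8 of 18 red cell, 11 of 19 ureteric bud and 5 of 16 endothelial genes. It was also reached by 1 of 10 cap mesenchyme genes, and all of these lay lower, against 3.98% of all genes. Stromal genes reached it in 7 of 17, all higher, against 4.03% of all genes, and proximal tubule genes in 0 of 10. The part of these cell types in the values of the 10 genes was not tested.

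The 5 genes most like Car9, the member with the largest moderated t, were Cox8b, Sox10, Kif14, Oasl1 and Tnfrsf25. Likeness was the Euclidean distance between log2 values centred on each gene's mean over the 4 arrays, among genes above the control level on all 4 arrays. It ran from 0.14 for Cox8b to 0.25 for Tnfrsf25. Cox8b read 10.6 and 27.6 on the labelled Tfrc-/- arrays, against 8.67 and 11.9 on the wildtype arrays, so that it too was dim and stood out on a single array. Over 4 arrays such likeness is a description only.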

How the data were processed

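RNA of 4 samples (50 ng each) was amplified, biotin-labelled and hybridised to Affymetrix mouse arrays, per the labels' protocols. The deposited intensity of each probe set is linear and was made by the authors with RMA, per the submitters' processing notes; neither its version nor the step back to a linear scale is given in the sources used here. It equalises the arrays, so a shift shared by most genes would be removed. Median intensities over all probe sets were 17.5 and 18.8 on the labelled Tfrc-/- arrays (replicates 1 and 2) and 17.9 and 19.3 on the wildtype arrays.

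Intensities were taken to log2. Of 45101 probe sets, 34958 had 1 gene symbol, 932 several and 9211 none; symbols were updated by Entrez identifier through a RefSeq table (GRCm38.p6), which held 18033 of 18194 genes. Each gene took its probe set with the highest mean. Differences (labelled Tfrc-/- minus wildtype) went through lmFit and eBayes of limma 3.58.1 (R 4.3.3) without a filter or a block; p-values were adjusted after Benjamini and Hochberg across every gene, and 0.05 was the threshold. An exact permutation test of 2 arrays against 2 cannot give a p below 0.333. The number of arrays limits the precision. The limma script was tested on simulated data.

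The members and lists were chosen with earlier results of these data known. Named genes are the members, their measured paralogues, up to 5 genes of each other metabolic list and 3 of each cell type list by moderated t (cell type genes are given mostly as counts), and the 5 most like the leading member; Hba-a1, Epb42 and Rhag were named after their values were seen. Alternatives were a replicate block, other normalizations, a filter, an offset of 16, other probe set summaries and leaving out each array.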

Additional observations from a re-analysis of the deposited data

How the results depend on the processing

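In 11 alternative settings 0 of the 10 genes passed, with a lowest adjusted p of 0.264, and 96 of 110 gene values kept their direction. The labels do not say that equal replicate numbers share an animal or a day. Deviations of arrays of equal number went together over genes (correlation 0.51), and the replicate block gave 2 calls over all genes, Stfa2l1 and Stfa3, and unadjusted p under 0.05 for 2 of the 10 genes in place of 0: Bnip3 at 0.0213 (adjusted 0.264) and Car9 at 0.0317 (adjusted 0.296). The mean or the median of all probe sets gave 1 call in place of 0. Member genes without overlap, in either direction, numbered 3 with quantile normalization and 0 with 75th percentile centring. They numbered 2 with the mean and 2 with the median of all probe sets, and 3 to 8 with 1 array left out. The share of all genes was not counted in these settings. The median of the 10 genes was 0.034 to 0.29 with 1 array left out. Reversed values were 0.021 for Slc2a1, -0.093 for Pfkl and -0.0019 for Pgk1 with the mean of all probe sets, and 0.014 for Slc2a1, -0.061 for Pgk1 and 0.086 for Pdk1 with their median. With the mean of all probe sets Pdk1 moved to -0.50 (unadjusted p = 0.0286, adjusted p = 0.511). With 1 array left out, differences ran from -0.37 to 0.33 for Slc2a1, -0.51 to 0.26 for Hk1, -0.46 to 0.63 for Pfkl and -0.22 to 0.10 for Pdk1; the lone array is then assumed to vary like the others. With 1 array left out the replicate numbers are unequal between the groups, so these ranges also hold the difference between the numbers. The cause of the other moves was not tested. Signal over background limits Car9, at 10.2 to 30.6, whose difference was 0.42 with an offset of 16 in place of 0.79.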

Other observations

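The mitochondrial enzymes that turn pyruvate into acetyl-CoA gave no call. Of 8 genes of the pyruvate dehydrogenase complex and its phosphatases 0 passed with limma, the median difference was -0.01 and 0 had an unadjusted p under 0.05. Pdhx, the component that binds the third enzyme of the complex, lay higher without overlap, at 76.7 and 81.1 on the labelled Tfrc-/- arrays, against 66.0 and 65.6 on the wildtype arrays. Pdhb, a subunit of the first enzyme, lay lower without overlap, at 703.2 and 751.0 against 778.0 and 979.5. Pdha1, which carries the sites that Pdk1 phosphorylates, read 1247 and 1364 against 1161 and 1267, with overlap, and Dld and Pdpr differed by 0.28 and -0.10 on the log2 scale.

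Of 8 gluconeogenic genes 0 passed and the median difference was 0.003. None lay apart without overlap, where 20.6% of all genes lay higher and 14.3% lower. The mitochondrial carboxykinase Pck2 read 497.3 and 449.0 on the labelled Tfrc-/- arrays, against 478.0 and 363.4 on the wildtype arrays. Slc37a4, Pcx and Fbp2 differed by 0.19, -0.16 and 0.20, and G6pc did not exceed the control level on any array. A probe set annotated to Hk1 together with Rpl17 and 4 further symbols was left out of the gene values. It read 7663 and 8260 on the labelled Tfrc-/- arrays, against 7626 and 8747 on the wildtype arrays.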
